A study of Homo sapiens with 30 samples.

Results

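The genes described here are 10 muscle energy genes, taken by symbol from the 23262 genes of the deposited tables: MB, CKM, CKB, CKMT2, ENO3, PYGM, PGAM2, PFKM, AK1 and COX6A2. All 10 symbols were listed in every table. They were measured by RNA sequencing in Rh30 cells, a widely used line of alveolar rhabdomyosarcoma with the PAX3-FOXO1 fusion gene. A tagged Rh30 line carried the FKBP degradation tag on either PAX3-FOXO1 or FOXO1, and dTAG is a small molecule that brings an FKBP-tagged protein to the proteasome. The PAX3-FOXO1-FKBP line was given 500 nM dTAG for 2, 6, 24 or 72 h or was kept in DMSO, and the FOXO1-FKBP line was given the same series. A second table held the PAX3-FOXO1-FKBP clones 4, 10, 11 and 12 and parental Rh30, all of which the labels give as DMSO. There were 30 samples in 15 groups of 2, of which 20 belonged to the time course. All groups share 1 parental cell line, each clone stands for itself, the labels give no length for the DMSO treatment, no protein was measured, and the labels do not say which clone served in the time course. They also do not say that the paired samples of each group were grown apart, so p-values measure a spread that may be technical.

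Muscle contraction draws on ATP that is refilled at several speeds. Creatine kinase moves phosphate from phosphocreatine to ADP, with a muscle form (CKM), a brain form that also serves immature muscle (CKB) and a sarcomeric mitochondrial form (CKMT2). Adenylate kinase (AK1) makes ATP from ADP, glycogen phosphorylase (PYGM) releases glucose units for glycolysis, and myoglobin (MB) binds oxygen for respiration. During muscle development the CKB form is the earlier one and CKM takes over in mature fibres.

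Promoter windows are shown for the 3 members with a single RefSeq start that were at least 2-fold over DMSO at 72 h of dTAG. That of PGAM2, a muscle gene that stayed near 0 throughout, is shown too. COX6A2 was near 0 as well, with 21.0 estimated counts at 72 h in the PAX3-FOXO1-FKBP line against 19.7 for PGAM2. It was below the count minimum used for calls by size and had too few counts for the slope test. The windows come from RefSeq (GRCh38.p14) and run from 250 bases before to 50 bases after the annotated start. They are written 5′ to 3′ on the gene's own strand, which is the minus strand for all 4. Capitals mark the E-box CANNTG, which myogenic bHLH factors such as MYOD1 and MYOG bind, and the MEF2 site. The windows are chr19:45322826-45323125 for CKM, chr14:103522781-103523080 for CKB, chr16:31428311-31428610 for COX6A2 and chr7:44065518-44065817 for PGAM2.
CKM: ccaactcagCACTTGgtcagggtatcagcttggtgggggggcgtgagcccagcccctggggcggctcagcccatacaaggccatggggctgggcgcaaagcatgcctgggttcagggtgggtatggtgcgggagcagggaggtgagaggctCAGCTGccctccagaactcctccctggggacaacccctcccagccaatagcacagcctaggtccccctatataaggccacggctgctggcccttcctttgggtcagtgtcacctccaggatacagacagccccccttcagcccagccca
CKB: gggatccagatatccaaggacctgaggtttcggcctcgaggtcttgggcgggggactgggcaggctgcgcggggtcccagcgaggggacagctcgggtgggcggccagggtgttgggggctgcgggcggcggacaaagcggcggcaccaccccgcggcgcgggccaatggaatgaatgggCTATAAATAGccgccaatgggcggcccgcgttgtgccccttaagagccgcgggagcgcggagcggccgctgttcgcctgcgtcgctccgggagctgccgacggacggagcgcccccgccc
COX6A2: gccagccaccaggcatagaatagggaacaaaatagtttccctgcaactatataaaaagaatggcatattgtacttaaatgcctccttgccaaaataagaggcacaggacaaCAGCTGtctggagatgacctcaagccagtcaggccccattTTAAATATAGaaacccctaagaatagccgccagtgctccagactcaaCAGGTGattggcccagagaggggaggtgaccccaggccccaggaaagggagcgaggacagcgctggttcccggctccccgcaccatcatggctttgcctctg
PGAM2: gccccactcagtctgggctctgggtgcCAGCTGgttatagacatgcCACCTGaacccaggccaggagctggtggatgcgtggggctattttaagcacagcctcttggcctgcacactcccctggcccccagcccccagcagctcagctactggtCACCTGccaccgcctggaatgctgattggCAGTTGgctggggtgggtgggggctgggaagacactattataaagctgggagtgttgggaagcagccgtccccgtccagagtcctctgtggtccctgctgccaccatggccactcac

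The CKM window held 2 E-boxes, 1 of them CAGCTG, and no MEF2 site. The CKB window held no E-box, 1 MEF2 site that overlaps its TATAAA, and 5 matches to GGGCGG, the letters of a GC box. The COX6A2 window held 2 E-boxes and 1 MEF2 site, and the PGAM2 window held 4 E-boxes. Both strands were searched. Among 35116 windows of the same length, 68.7% held CANNTG, 17.9% CAGCTG, 11.5% TATAAA, 45% GGGCGG and 2.99% a MEF2 site, so an E-box is common in any promoter. RefSeq windows were found for 9 of the 10 members, in 19 windows, and a CArG box, the site of serum response factor, was in none of them, against 1.29% of all windows. These letter matches describe the windows and say nothing of binding.

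The time-course tables held 1 column of estimated counts per condition, so each value below is the authors' pooled value of 2 samples and has no replicate check. Column totals ran from 25863451 to 30466960 in the time course and from 17746684 to 26834005 in the clone libraries. Levels are CPM (counts relative to the library total, with TMM scaling), and levels of different genes are set against each other only as CPM per kb of transcript. The degradation tag acts on protein, so mRNA gives no check of dTAG itself; PAX3 mRNA, which includes reads of the fusion, was 27.2, 16.9, 13.9, 17.2 and 13.9 CPM in DMSO and at 2, 6, 24 and 72 h in the PAX3-FOXO1-FKBP line, and its slope did not pass the test (adjusted p = 0.189, edgeR quasi-likelihood test). The myogenic markers MYOD1, MYOG and DES were present in every column, and MYF5 and MYF6, which mark other stages of the lineage, had under 10 counts in every time-course column. The 2 h column of the PAX3-FOXO1-FKBP line stands apart from the other 4. In it 12 of 12 B lineage genes had at least 10 counts, against 3 in DMSO, 2 at 6 h, 1 at 24 h and 2 at 72 h. Their summed counts were 2906, 4413, 1218, 411 and 407 in that time order. In DMSO 4 of the 12 were at 0, among them IGJ, CD22 and TCL1A, which had 394, 99.4 and 29.6 counts at 2 h. FCRLA alone made up 2814 counts in DMSO and 2646 at 2 h. Of 8 pan-leukocyte genes, 7 had at least 10 counts at 2 h and 4 in each other column. None of the 5 adipocyte genes reached 10 counts in any column, and 2 of the 5 neural genes did in each column of this line.

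MB, the oxygen-binding protein of muscle, was the first of the 10 genes to be at least 2-fold higher. In the PAX3-FOXO1-FKBP line its level was 1.03 CPM in DMSO and 3.27, 5.92, 15.2 and 15.0 CPM at 2, 6, 24 and 72 h. Every dTAG column lay above DMSO, and the 24 and 72 h columns were alike. In bulk RNA, more cells with MB and more MB per cell cannot be told apart, here and below. The change over DMSO was 3.18-fold at 2 h (95% counting interval 2.09 to 4.89), 5.76-fold at 6 h, 14.8-fold at 24 h and 14.6-fold at 72 h (10.1 to 21.7). Such intervals, computed by the exact binomial (Clopper-Pearson) method from rounded counts, cover counting error only, and the DMSO value rests on 30.8 counts. The 2 h column that holds the B lineage RNA is also the column where MB was 3.18-fold higher. The part of that RNA in the 2 h value was not tested. With the changes corrected for transcript length and GC content, MB was 1.51 (log2) higher at 2 h, against 1.61 without it.

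CKB, the creatine kinase of brain and immature muscle, was the most abundant of the creatine kinases and climbed at each step. Its level was 97.3 CPM in DMSO and 111, 187, 321 and 423 CPM at 2, 6, 24 and 72 h in the PAX3-FOXO1-FKBP line. No column broke the order, and the 72 h column was 4.34-fold above DMSO (4.17 to 4.52). CKM, the creatine kinase of mature muscle, was 1.79 CPM in DMSO and 2.54, 2.31, 6.05 and 36.3 CPM at the same times. The first 3 columns were close together, with a change at 2 h of 1.42-fold whose interval includes 1 (0.977 to 2.03), and the 72 h column stood far above the rest at 20.3-fold over DMSO (15.3 to 27). CKMT2, the mitochondrial form, had 3.73 estimated counts in DMSO and 0.853, 0.458, 0 and 2.12 at the dTAG times. Nothing can be said of its direction at that depth.

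**Figure D1:**
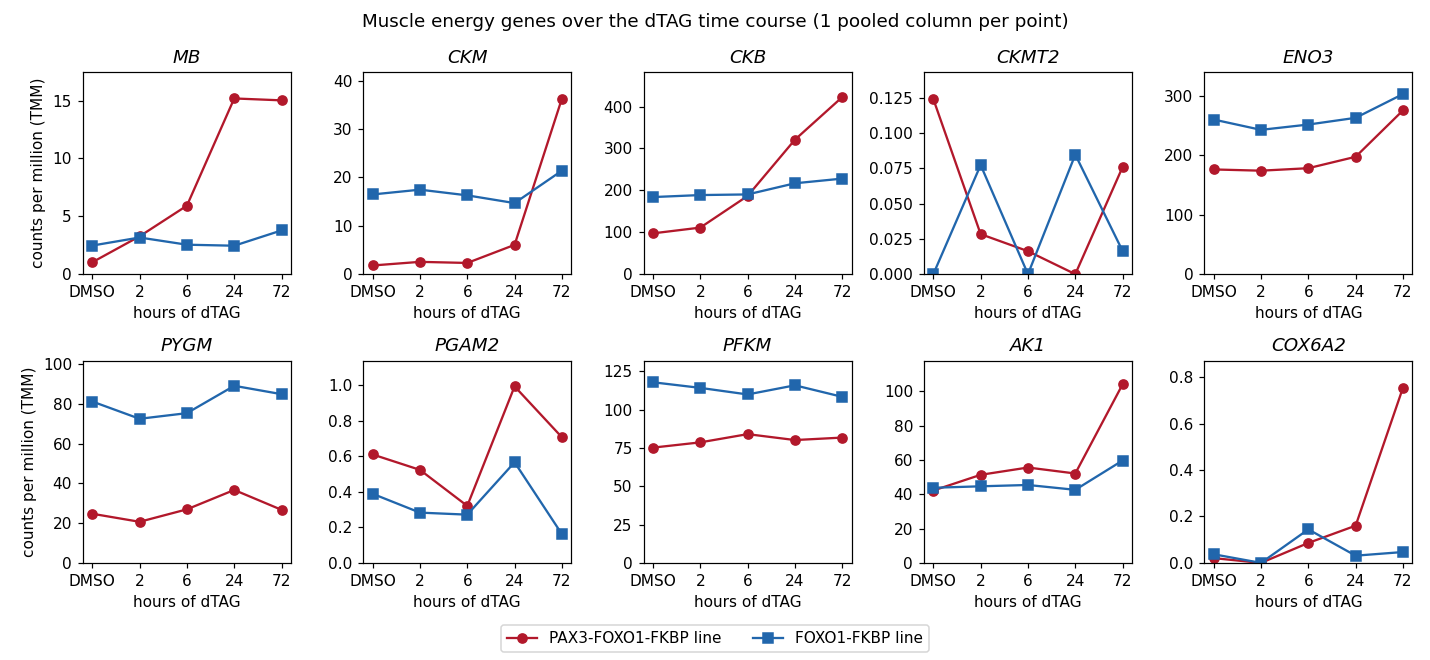
Level of each of the 10 genes (y axis, CPM scaled with TMM, own scale per panel) in DMSO and at 2, 6, 24 and 72 h of dTAG (x axis, equally spaced). Red circles are the PAX3-FOXO1-FKBP line and blue squares the FOXO1-FKBP line, each point 1 pooled column without an error; MB and CKB climb from early times and CKM at 72 h in red, while CKMT2, PGAM2 and COX6A2 stay at or below about 1 CPM.

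The glycolytic members moved less. ENO3, the muscle enolase, was 176 CPM in DMSO and 174, 178, 197 and 275 CPM at 2, 6, 24 and 72 h, which put only the 72 h column apart, at 1.56-fold over DMSO (1.51 to 1.62). PYGM, the muscle glycogen phosphorylase, was 24.7 CPM in DMSO and 20.7, 27, 36.7 and 26.7 CPM at the dTAG times, highest at 24 h and back near DMSO at 72 h. PFKM, the muscle phosphofructokinase, kept between 75.2 and 84.0 CPM in all 5 columns. PGAM2, the muscle phosphoglycerate mutase, stayed at 0.32 to 0.99 CPM with no order in time, from 9.01 to 27.6 counts.

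AK1, the cytosolic adenylate kinase of muscle, was 42.2 CPM in DMSO and 51.4, 55.6, 52.1 and 104 CPM at 2, 6, 24 and 72 h. The 3 earlier dTAG columns were alike and the 72 h column was 2.47-fold above DMSO (2.31 to 2.64). COX6A2, the heart and muscle form of a cytochrome c oxidase subunit, had 0.617 estimated counts in DMSO and 0, 2.42, 4.46 and 21.0 at the dTAG times. Only its 72 h column rose clear of single counts, 36.7-fold over DMSO with a counting interval of 3.63 to 934.

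Calls were made in 2 ways, by a rule of size at each time and by a test of slope over the 5 columns. A gene met the rule of size when it was at least 2-fold from DMSO and averaged 50 or more normalised counts, a minimum that 7 of the 10 members reached in each line. At 2 h 1 of the 7 was at least 2-fold higher, against 0.373% of all 12334 genes in the set. At 6 h it was 1 of 7 against 0.608%, at 24 h 3 of 7 against 1.38% and at 72 h 4 of 7 against 3.41%. MB met it at all 4 times, CKM and CKB at 24 and 72 h, and AK1 at 72 h, and none of the 7 was at least 2-fold lower at any time, against 0.284%, 1.23%, 1.73% and 3.05% of all genes. The members' median log2 change was 0.19, 0.36, 0.57 and 1.30 at 2, 6, 24 and 72 h, beside -0.0042, 0.014, 0.0095 and -0.0059 for all genes.

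The slope on log2 of hours plus 1 was fitted with edgeR's quasi-likelihood test across all genes, with Benjamini-Hochberg adjustment. Its p measures the scatter of pooled columns around a line, not the spread of replicates. In the PAX3-FOXO1-FKBP line 3 of the 8 members with enough counts rose and 0 fell, against 2.41% of 14255 genes rising and 2.13% falling. CKB rose by 0.37 per unit (SE 0.031, adjusted p = 0.00146), MB by 0.61 (SE 0.077, adjusted p = 0.00555) and CKM by 0.73 (SE 0.11, adjusted p = 0.00881). AK1 (slope 0.18, adjusted p = 0.0546), ENO3 (0.099, adjusted p = 0.116), PYGM (adjusted p = 0.458), PGAM2 (adjusted p = 0.626) and PFKM (adjusted p = 0.745) did not pass, and CKMT2 and COX6A2 had too few counts to be tested. The median fitted change to 72 h was 0.89 over the 8 tested members and 0.0065 over all genes (log2). The call of CKM needed the 72 h column: without it the slope was 0.36 with an adjusted p of 0.129, in a fit that called 140 genes. Without the 24 h column, AK1 (adjusted p = 0.0014) and ENO3 (adjusted p = 0.0334) passed as well, in a fit that called 1407 genes, where the fit with all columns had 343 rising and 304 falling.

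The genes thus differed in the time at which the gain came. MB had 16.0% of its 72 h gain in CPM at 2 h, 34.9% at 6 h and 101% at 24 h. CKB had 4.23%, 27.5% and 68.7% at those times. CKM had 2.18%, 1.52% and 12.4%, so most of its gain lay between 24 and 72 h, where it was 5.99-fold higher at 72 h than at 24 h, against 1.32-fold for CKB and 0.989-fold for MB. AK1 had 14.8%, 21.7% and 16.0% and was 2.00-fold higher at 72 h than at 24 h. By interpolation between columns, the midpoint of the log2 change to 72 h fell at 3.0 h for MB, 7.51 h for CKB, 28.8 h for CKM and 35.3 h for AK1. MB was at least 2-fold higher from 2 h on, CKB and CKM from 24 h and AK1 at 72 h; CKB at 6 h, at 1.92-fold (1.83 to 2.01), lay just under that fold. COX6A2, below the count minimum, would be placed at 24 h with a prior count of 2, at 6 h with 0.5 and at 72 h with 10, so its place in the order is not fixed by these data.

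**Figure D2:**
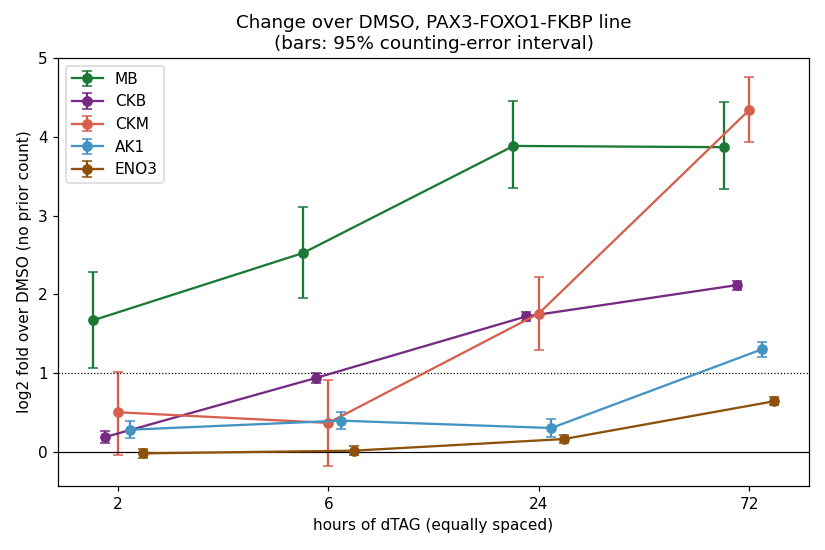
Change over DMSO (y axis, log2 fold of CPM) at 2, 6, 24 and 72 h of dTAG (x axis, equally spaced) in the PAX3-FOXO1-FKBP line for MB, CKB, CKM, AK1 and ENO3; bars are 95% counting-error intervals and the dotted line marks 2-fold. MB passes the line at 2 h, CKB and CKM at 24 h and AK1 at 72 h, and CKM changes most between 24 and 72 h.

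In the FOXO1-FKBP line, where the tag is on FOXO1, no member was called over the same series. MB was 2.47 CPM in DMSO and 3.17, 2.55, 2.46 and 3.78 CPM at 2, 6, 24 and 72 h. CKM was 16.5 CPM in DMSO and 17.5, 16.3, 14.7 and 21.4 CPM at the dTAG times, and CKB was 184, 189, 190, 217 and 228 CPM from DMSO to 72 h. For all 3 the 72 h column was the highest, by 1.53-fold over DMSO for MB, 1.30-fold for CKM and 1.24-fold for CKB. AK1 was 59.7 CPM at 72 h against 43.8 CPM in DMSO, and ENO3 303 CPM against 260 CPM. PYGM kept between 72.6 and 89.2 CPM and PFKM between 108 and 118 CPM, while PGAM2, CKMT2 and COX6A2 had at most 15.1, 2.26 and 3.62 estimated counts. None of the 7 members in the set was 2-fold higher or lower at any time, against 0.0334%, 0.0334%, 0.108% and 0.0501% of 11982 genes higher at 2, 6, 24 and 72 h and 0.0417%, 0.025%, 0.1% and 0.392% lower. None of the 7 tested members passed the slope test, in which edgeR called 0% of 13862 genes (0 genes, with 640 at an unadjusted p under 0.05 and 1 called by DESeq2). CKB was nearest among the members (slope 0.054, unadjusted p = 0.0216, adjusted p = 0.862). Without the 24 h column CKB (adjusted p = 0.0309) and AK1 (adjusted p = 0.0188) passed in this line too, in a fit that called 1179 genes. The median fitted change to 72 h was 0.23 over the 7 members and -0.0038 over all genes.

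The difference in slope between the lines was tested directly, in 1 fit over both lines, with the columns of both scaled together by TMM. It was 0.32 for CKB (SE 0.037, adjusted p = 0.00249), 0.70 for CKM (SE 0.13, adjusted p = 0.0206) and 0.55 for MB (SE 0.10, adjusted p = 0.0222), in each case steeper in the PAX3-FOXO1-FKBP line than in the FOXO1-FKBP line. That is 3 of 8 members, against 1.12% of 14506 genes steeper and 0.903% less steep. AK1 (0.12, adjusted p = 0.413), ENO3 (0.060, adjusted p = 0.613) and the other 3 tested members did not pass this test. Without the 24 h column AK1 passed (0.14, adjusted p = 0.021). CKB kept its call with any 1 time left out. MB and CKM lost theirs without the 2 h column (adjusted p = 0.111 for each), MB without 6 h (adjusted p = 0.0553) and CKM without 72 h (adjusted p = 0.124), with slope differences of 0.54 and 0.70, 0.57 and 0.41 in those fits. Calls over all genes fell too, to 90 without 2 h, 164 without 6 h and 50 without 72 h. With all columns, 162 genes were steeper and 131 less steep.

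The lines did not start from the same levels. In DMSO, CKM was 1.79 CPM in the PAX3-FOXO1-FKBP line and 16.5 CPM in the FOXO1-FKBP line, a ratio of 0.109. PYGM was 0.304-fold, MB 0.416-fold, CKB 0.529-fold, PFKM 0.638-fold, ENO3 0.677-fold and AK1 0.963-fold, again with the PAX3-FOXO1-FKBP line lower. These ratios rest on 1 pooled column per line and on tables scaled apart, and carry no test. At 72 h of dTAG, CKM (36.3 CPM), MB (15.0 CPM) and CKB (423 CPM) in the PAX3-FOXO1-FKBP line lay above every column of the FOXO1-FKBP line, and PYGM, PFKM and ENO3 still lay below its 72 h column.

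Per kb of transcript, ENO3 led in DMSO in the PAX3-FOXO1-FKBP line at 122 CPM per kb, followed by CKB at 57.0, AK1 at 28.7, PFKM at 26.2, PYGM at 8.52, CKM at 1.08 and MB at 0.89 CPM per kb. AK1 and PFKM lay close together, as did CKM and MB. At 72 h CKB led at 247 CPM per kb, before ENO3 at 190, AK1 at 70.8, PFKM at 28.5, CKM at 21.9, MB at 13 and PYGM at 9.20 CPM per kb. In the FOXO1-FKBP line ENO3 led and CKB was next at both ends of the series, with 180 and 108 CPM per kb in DMSO and 209 and 133 at 72 h.

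CKM was set against CKB as a measure of the mature over the early creatine kinase. Per kb, CKM was 1.90% of CKB in DMSO and 2.36%, 1.28%, 1.95% and 8.85% at 2, 6, 24 and 72 h in the PAX3-FOXO1-FKBP line. Up to 24 h the ratio had no order in time, with both genes up to the same degree over DMSO at 24 h, and only the 72 h column was apart. In the FOXO1-FKBP line it was 9.23%, 9.54%, 8.83%, 6.98% and 9.67% from DMSO to 72 h. Both lines were thus close at 72 h, and CKB mRNA remained the larger in every column of every table. The ratio was 17.8% and 16.7% for clone 4, 1.85% and 1.51% for clone 10, 18.4% and 17.0% for clone 11, 7.90% and 8.06% for clone 12 and 11.5% and 10.1% in parental Rh30. CKM and CKB share much of their coding sequence, and a counting rule for reads that match both was not given in the sources used here.

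**Figure D3:**
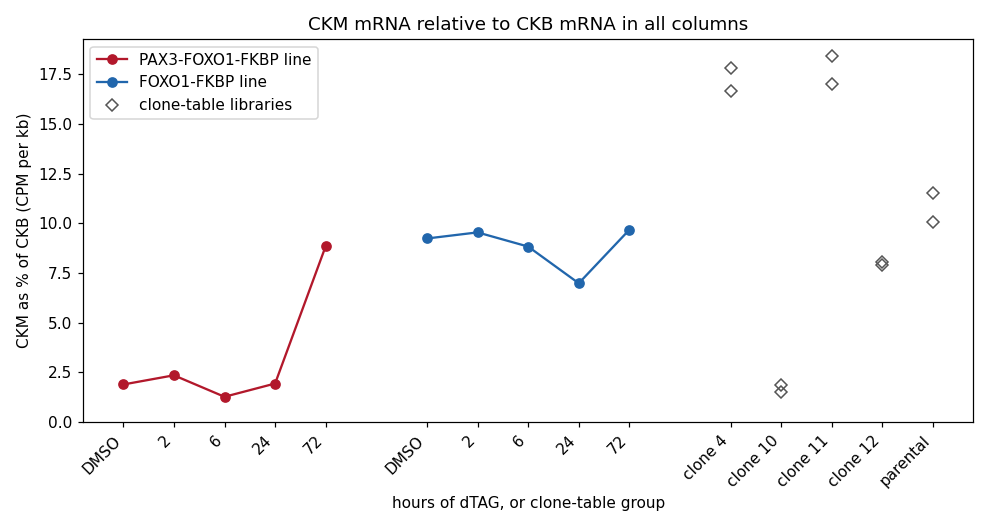
CKM mRNA as a percentage of CKB mRNA (y axis, CPM per kb) in the dTAG series of both lines (circles, 1 pooled column each, DMSO then hours) and in each clone-table library (diamonds). The PAX3-FOXO1-FKBP line stays at 1.28 to 2.36% until 24 h and reaches 8.85% at 72 h, close to the 6.98 to 9.67% of the FOXO1-FKBP line, and clone 10 is the lowest clone.

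The other muscle isoforms were set against their widely expressed counterparts in the same way. ENO3 was 7.90% of ENO1, the general enolase, in DMSO and 11.1% at 72 h in the PAX3-FOXO1-FKBP line, and 13.7 to 16.0% over the FOXO1-FKBP series. PYGM was 30.9% of PYGB, the brain phosphorylase, in DMSO and 26.4% at 72 h in the PAX3-FOXO1-FKBP line, against 182% and 181% in the FOXO1-FKBP line, so the larger of these phosphorylases was PYGB in one line and PYGM in the other. PFKM was 22.3% of PFKL, the liver phosphofructokinase, in DMSO and 30.3% at 72 h in the PAX3-FOXO1-FKBP line, against 69.7% in DMSO and 57.4% at 72 h in the FOXO1-FKBP line. PGAM2 stayed between 0.169% and 0.516% of PGAM1 in the PAX3-FOXO1-FKBP line and between 0.11% and 0.394% in the FOXO1-FKBP line. COX6A2 reached 0.592% of COX6A1 at 72 h in the PAX3-FOXO1-FKBP line, against 0.0364% at 72 h in the FOXO1-FKBP line. Of 12 other isoforms tested, the general or non-muscle forms, 1 rose and 0 fell in the PAX3-FOXO1-FKBP line, against 2.41% of all genes rising and 2.13% falling. That one was AK5, an adenylate kinase best known from brain, at 19.1, 21.1, 30.9, 41.4 and 43.7 CPM from DMSO to 72 h (slope 0.22, adjusted p = 0.00706).

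The wider pathways showed few calls in the PAX3-FOXO1-FKBP line. Of 18 tested genes of shared glycolysis, 1 rose and 0 fell, with a median fitted change of 0.027 (log2) by 72 h beside 0.0065 for all genes. The one was SLC16A3, the lactate exporter MCT4, with 3.49, 6.27, 9.39, 16.2 and 19.6 CPM from DMSO to 72 h (slope 0.41, adjusted p = 0.00182). Its columns climb without a break, while it stayed between 2.38 and 2.86 CPM in the FOXO1-FKBP line. Of 10 creatine and purine nucleotide cycle genes 1 rose, with a median of 0.027: GAMT, the last enzyme of creatine synthesis, at 65.5 CPM at 72 h against 28.3 CPM in DMSO (slope 0.20, adjusted p = 0.0116). SLC6A8, the creatine transporter, missed the threshold (slope 0.14, adjusted p = 0.0541). None of 7 respiratory isoforms passed (median 0.30; 0 genes by edgeR). Of 9 hypoxia-responsive genes, a list taken because MB serves oxygen supply, 0 rose and 2 fell, NDRG1 (slope -0.28, adjusted p = 0.0181) and VEGFA (slope -0.13, adjusted p = 0.0474). Of 8 tested myogenic markers 3 rose and 0 fell: MYOG (slope 0.31, adjusted p = 0.00182), DES (0.24, adjusted p = 0.00607) and MEF2C (0.31, adjusted p = 0.026). Of the lists for other cell types, 1 of 3 tested B lineage genes, 1 of 4 pan-leukocyte genes and 2 of 3 endothelial genes fell, 0 rose, and 0 of 2 neural genes passed. In the FOXO1-FKBP line no gene of any of these lists passed, in a test that called 0% of 13862 genes, so this tells nothing particular of the lists.

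The genes whose levels ran most like each of the 3 rising members were ranked by Pearson's r of log2 levels over the 10 time-course columns, among 12330 genes. These are descriptions over columns that share 2 lines and 1 time series. For MB they were ADORA1 (r = 0.96), PLAC1, MYOG, QPRT and RASSF4 (r = 0.93), and MYOG is the myogenic factor of early differentiation. For CKM they were UBE2F (r = 0.97), BCRP3, UBE2E2, GGT5 and C1orf105 (r = 0.96). For CKB they were KREMEN2 (r = 0.98), SPG21, MYPN, the symbol M1 and PCLO (r = 0.95), and MYPN encodes a sarcomere protein, myopalladin. The nearest genes of MB, CKM and CKB had no symbol in common.

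The clones, all in DMSO, also differed from parental Rh30 in these genes. Each was tested against the same 2 parental libraries with edgeR's quasi-likelihood test over all genes. Roughly every other gene was called in these comparisons, so a call of a member is no rarity here. In clone 12, 6 of 7 tested members rose and 0 fell, against 27.8% of 14175 genes higher and 24.7% lower. In clone 10, 4 rose and 1 fell, against 27.8% and 24.2%. In clone 11, 3 rose and 0 fell, against 26.5% and 25.1%, and in clone 4, 2 rose and 0 fell, against 25.1% and 22.3%. The members' median log2 change was 1.36, 0.70, 0.75 and 0.47 in clones 12, 10, 11 and 4, beside 0.029, 0.053, -0.0048 and 0.048 for all genes. Any difference among the 5 groups was called for 6 of 7 members, all but ENO3 (adjusted p = 0.0703), against 83.1% of genes. PGAM2, CKMT2 and COX6A2 had at most 20, 5 and 1 counts in any clone-table library and were not tested. Summed counts of the 5 neural genes were 413 and 546 in clone 4 and 17 to 47 in the libraries of the other clones, against 80 and 68 in parental Rh30. In each clone 4 library only 1 of the 5 had at least 10 counts and 2 were at 0. RBFOX3 alone had enough counts to be tested and was 3.33 higher (log2) in clone 4. The 8 pan-leukocyte genes summed to 311 and 386 CPM (clone 4), 126 and 193 CPM (clone 10), 120 and 259 CPM (clone 11) or 86.4 and 153 CPM (clone 12), against 104 and 107 CPM in parental Rh30. Both libraries of clones 4, 10 and 11 lay above parental Rh30, and the clone 12 libraries straddled it. In each clone 4 library 4 of the 8 had at least 10 counts and 3 were at 0, as in each parental library. The log2 change in clone 4 was 5.57 for ARHGDIB, 3.72 for CD53, 1.30 for LAPTM5, 1.27 for CORO1A and -1.93 for CD37. PTPRC, LCP1 and CD48 had too few counts to be tested. Of the 12 B lineage genes 3 or 4 had at least 10 counts in each library, and none of the 5 adipocyte genes did. The part of these genes in the members' values was not tested.

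The CKM libraries had 15.8 and 20.9 CPM for clone 4, 2.99 and 3.03 for clone 10, 15.8 and 25.8 for clone 11 and 26.6 and 31.6 for clone 12, against 9.93 and 11.3 CPM in parental Rh30. Clone 10 lay below both parental libraries and the other 3 clones above them. With 2 libraries on each side, an unchanged gene often parts in this way too. The share of all genes that did so was not counted. CKM fell by 1.81 on the log2 scale in clone 10 (adjusted p = 0.000321, edgeR) and rose by 1.46 in clone 12 (adjusted p = 0.000567), 0.97 in clone 11 (adjusted p = 0.00534) and 0.79 in clone 4 (adjusted p = 0.0164). The clone 4 call was lost without parental replicate 1 (adjusted p = 0.0546), parental replicate 2 (adjusted p = 0.109) or clone 4 replicate 2 (adjusted p = 0.136), and that of clone 11 without its replicate 2 (log2 change 0.51, adjusted p = 0.0884), all from the same edgeR test. CKM was 3.01 ± 0.024 CPM (SD, n = 2) in clone 10 and 1.79 CPM in the PAX3-FOXO1-FKBP time-course line in DMSO, in tables scaled apart. MB, CKB, ENO3, PYGM, PFKM and AK1 were higher in clone 10 than in that DMSO column too, for example CKB at 187 against 97.3 CPM.

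The CKB values were 91.6 and 130 CPM for clone 4, 167 and 207 for clone 10, 88.8 and 157 for clone 11 and 347 and 405 for clone 12, against 101 and 102 CPM in parental Rh30. Clones 10 and 12 lay above both parental libraries, and clones 4 and 11 straddled them, an order with the same limit as for CKM. CKB rose in clone 12 (log2 change 1.89, adjusted p = 0.000221) and in clone 10 (0.88, adjusted p = 0.0114). The clone 10 call was lost without parental replicate 1 (adjusted p = 0.0591), parental replicate 2 (adjusted p = 0.0567) or clone 10 replicate 2 (adjusted p = 0.0918). In clone 10 the creatine kinases thus moved apart, CKM down and CKB up against parental Rh30.

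MB averaged 7.34 ± 2.50 CPM in clone 4, 2.25 ± 0.50 in clone 10, 7.65 ± 1.67 in clone 11 and 10.1 ± 6.09 in clone 12, against 3.90 ± 0.53 CPM in parental Rh30 (SD, n = 2 each). The clone 12 libraries were far apart, at 14.4 and 5.77 CPM. MB rose in clone 12 alone (log2 change 1.36, adjusted p = 0.0135), a call that was lost without the 14.4 CPM library (0.51, adjusted p = 0.287) or without parental replicate 1 (1.23, adjusted p = 0.081). The change of MB in the other clones did not pass but passed in several fits that leave out 1 library: in clone 4 (log2 change 0.91, adjusted p = 0.0791), for example, the adjusted p was 0.0446 without clone 4 replicate 1 and 0.0376 without the second clone 12 library. Likewise MB in clones 10 and 11 reached adjusted p-values of 0.0427 and 0.0279 without the 14.4 CPM library of clone 12. With no filter on low counts MB passed in clones 4, 10 and 11 (adjusted p = 0.012, 0.0141 and 0.00656), and with DESeq2 in clone 11 (0.0467).

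Among the other members, AK1 and PYGM were the ones called in most clones. AK1 averaged 44.9 ± 12.6 CPM in clone 4, 68.4 ± 7.37 in clone 10, 62.4 ± 8.72 in clone 11 and 83 ± 5.38 in clone 12, against 32.3 ± 1.28 CPM in parental Rh30 (SD, n = 2 each). It rose in clone 12 (log2 change 1.36, adjusted p = 0.00029), clone 10 (1.08, adjusted p = 0.000943) and clone 11 (0.95, adjusted p = 0.00195), and passed in clone 4 only without clone 4 replicate 1 (adjusted p = 0.00683). PYGM averaged 25.6 ± 1.82 CPM in clone 4, 39.1 ± 13 in clone 10, 21.0 ± 13.3 in clone 11 and 68.4 ± 8.46 in clone 12, against 12.4 ± 0.033 CPM in parental Rh30. It rose in clone 12 (log2 change 2.46, adjusted p = 0.000383), clone 10 (1.65, adjusted p = 0.00316) and clone 4 (1.04, adjusted p = 0.033). The clone 4 call was lost with any 1 library of parental Rh30, clone 4 or clone 12 left out (adjusted p = 0.0573 to 0.114) and with library totals in place of TMM (0.0658), and in clone 11, whose libraries had 11.6 and 30.4 CPM, PYGM passed without replicate 1 (adjusted p = 0.00474) and with no filter on low counts (0.0131).

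PFKM, which was not called in the time course, rose in clone 12 only, with 155 ± 8.53 CPM against 91.0 ± 0.94 CPM in parental Rh30 (SD, n = 2 each; log2 change 0.76, adjusted p = 0.00116). ENO3 averaged 216 ± 27.7 CPM in clone 10 and 223 ± 75.6 CPM in clone 11, against 133 ± 4.91 CPM in parental Rh30. It rose in clone 11 (log2 change 0.75, adjusted p = 0.0326) and clone 10 (0.70, adjusted p = 0.0412). Without either parental library, either library of the clone itself in clone 10, or replicate 2 of clone 11, the ENO3 calls were lost (adjusted p = 0.0738 to 0.46), and the one in clone 10 also without either clone 12 library (adjusted p = 0.064 for each). Library totals in place of TMM also ended them (adjusted p = 0.0631 in clone 10 and 0.101 in clone 11), and DESeq2's size factors the one in clone 10 (0.0582). In clone 12 ENO3 passed without either clone 4 library (adjusted p = 0.0354 and 0.0391), with DESeq2 (0.0444) and with no filter on low counts (0.00754).

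**Figure D4:**
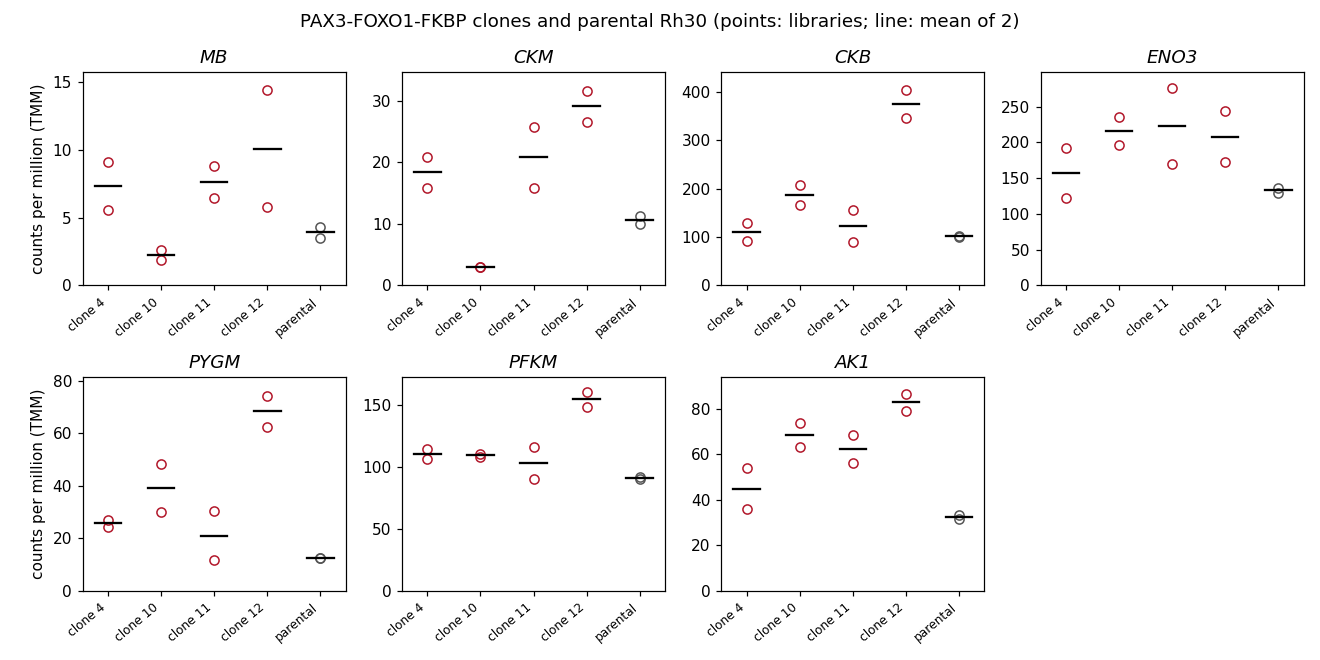
Level of the 7 members with enough counts (y axis, CPM scaled with TMM, own scale per panel) in the PAX3-FOXO1-FKBP clones 4, 10, 11 and 12 (red) and parental Rh30 (grey); open circles are libraries and the line is their mean (n = 2). CKM is lowest in clone 10, where CKB lies above parental Rh30, and clone 12 is highest for CKB, PYGM, PFKM and AK1.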

How the data were processed

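RNA of Rh30 cells was sequenced in 30 samples. Per the submitters' processing notes, Cuffdiff 2.1.1, Bowtie2 and Trimmomatic 0.32 were used with hg19, in roles not given in the sources used here. Time-course values are the authors' estimated counts, 1 pooled column per condition per the file headers (73.6% of values are not whole). The clone table holds raw counts deposited by the authors, 1 column per library. The 10 members, the gene lists and the tests were chosen with earlier results of these data known.

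Estimated counts were rounded for tests and scaled with TMM within each table (R 4.3.3, edgeR 4.0.16). For the difference in slope between the lines, the columns of both lines were scaled together. Genes with an exact 0 beside 10 or more counts in the other columns were left out as failed estimates, 41 in the PAX3-FOXO1-FKBP table and 9 in the FOXO1-FKBP table. Clones were tested by edgeR's quasi-likelihood F test on all 10 libraries (filterByExpr with a minimum count of 10, 5 residual degrees of freedom). For the pooled time-course columns, a slope on log2 of hours plus 1 was fitted over 5 columns (3 residual degrees of freedom, 6 for the difference between lines). A gene was called at a Benjamini-Hochberg adjusted p under 0.05. Log2 changes at single times use a prior count of 2. Fold intervals are 95% counting intervals. Transcript lengths are from GENCODE v29, matched by symbol (20088 of 23262).

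Text names all 10 members, the list genes that passed the slope test, SLC6A8 (just outside it and chosen after its values were seen), the counterparts of muscle isoforms and the 5 genes most like each rising member. Alternatives were DESeq2 1.42.0, other scalings, filters and prior counts, a length and GC correction, a replicate block and leaving out each library or column. A minimum mean normalised count of 50 for the trends, and the clone fit in 8 libraries without the block, were added after seeing the data. The scripts were tested on simulated data. Promoter windows are from RefSeq (GRCh38.p14); hg19 coordinates were not used. Some results for list genes are not reported here.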

Additional observations from a re-analysis of the deposited data

Results flagged for a closer look

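The trends of 3 muscle energy genes differed between the lines by a test of the difference itself, an interaction term in edgeR's quasi-likelihood fit. The slope in the PAX3-FOXO1-FKBP line minus that in the FOXO1-FKBP line was 0.316 for CKB (adjusted p = 0.00249), 0.705 for CKM (adjusted p = 0.0206) and 0.552 for MB (adjusted p = 0.0222), per unit of log2 hours plus 1. Each slope rests on 5 pooled columns. The DMSO levels of all 3 genes were lower in the PAX3-FOXO1-FKBP line than in the FOXO1-FKBP line, and the part of that difference in the slopes was not tested.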

How the results depend on the processing

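With library totals in place of TMM, members called in clone 4 numbered 1 in place of 2, CKB in clone 4 turned to -0.054 and PFKM in clone 11 to -0.056 (log2, neither passed in any of these fits). With no filter on low counts, 5 members were called in clone 11 in place of 3. With 1 library left out at a time, the number of members called moved in every clone, and so did the number differing among the 5 groups. Calls over all genes moved as well, and fell in each clone when a parental library was left out. Each such fit leaves 1 library in a group, so these counts are not set out here. Log2 changes of uncalled members that changed sign there ranged from -0.21 to 0.32 (CKB) and -0.19 to 0.49 (ENO3) in clone 4, and from -0.26 to 0.57 (CKB), -0.17 to 1.23 (PYGM) and -0.086 to 0.29 (PFKM) in clone 11, each lowest without that clone's replicate 2. With 1 time-course column left out, members called ranged from 2 to 5 in the PAX3-FOXO1-FKBP trend, 0 to 2 in the FOXO1-FKBP trend and 1 to 4 in the difference. Calls over all genes in those fits ranged from 140 to 1407, 0 to 1179 and 50 to 683. The FOXO1-FKBP slopes ranged from -0.019 to 0.089 for MB, -0.040 to 0.063 for CKM and -0.0072 to 0.078 for AK1, negative without 72 h. The cause was not tested. DESeq2 called AK1 in the PAX3-FOXO1-FKBP trend (adjusted p = 0.00362). DESeq2 called 1046 genes there, against 343 rising and 304 falling with edgeR, and 550 in the difference, against 162 and 131. Of results for single genes under settings other than leaving out a library or column, 616 kept direction and side of the threshold, 7 lost and 14 gained a call, 2 turned round and 2 moved (the time of COX6A2, 6 or 72 h). With 1 library or column left out, 318 kept both, 29 lost and 17 gained a call and 8 turned round.

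A replicate block over parental Rh30 and clones 4, 10 and 11 called 3, 6 and 4 members in clones 4, 10 and 11, against 2, 5 and 3, the gain being MB in each (adjusted p = 0.00854, 0.00923 and 0.00442), which passed in these 8 libraries without the block too (0.0401, 0.0438 and 0.0287); 6 members differed among groups. It called 7046, 7705 and 7689 genes, against 6280, 6937 and 6984 without the block in the same 8 libraries. Same-numbered libraries correlated by 0.00869 to 0.364 in their deviations over 6 pairs of groups, all positive. The labels do not say what they share beyond the number, and this was not tested. No paired analysis was possible for the time course because its columns pool the replicates. Depth limits CKMT2, COX6A2 and PGAM2.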
